A study of Mus musculus with 8 samples.

Results

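Foxp3-positive T cells of mouse lung grafts were described. They were selected on measured counts, as the cells that the authors labelled T cell with at least 1 count of Foxp3 and none of Cd8a or Cd8b1. There were 85 of them among 5071 T cells and 20778 cells of 8 grafts, 35 in B6→B6 grafts and 50 in HLA→B6 grafts. Each graft was the left lung placed orthotopically into a male C57BL/6 (B6) mouse and taken after 1 month, and each was 1 mouse and 1 library. The donor was a B6 mouse in the 5 B6→B6 mice, the non-rejecting controls, and an HLA mouse (Tg(HLA-A2.1)1Enge/J on the C57BL/6 background, which carries a human HLA-A2 transgene) in the 3 HLA→B6 mice, which develop bronchiolitis obliterans syndrome (BOS). All 8 recipients were B6, none was given immunosuppression, and 10000 cells per graft were loaded for droplet sequencing of transcript 3′ ends (10x Genomics). T cells of the donor lung and of the recipient carry the same strain background. In HLA→B6 grafts donor cells also carry the transgene, but the counts were made on the mouse genome mm10. The origin of the T cells was therefore not told apart here.

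Regulatory T cells are CD4 T cells that hold other lymphocytes in check. Their lineage is set by the transcription factor FOXP3, they capture interleukin-2 through the high-affinity receptor whose alpha chain (CD25) is encoded by Il2ra, and many of them carry Helios, the product of Ikzf2. They act through CTLA-4, which removes co-stimulatory ligands from antigen-presenting cells, and through inhibitory cytokines, and in transplantation they are known for their part in graft tolerance.

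The counts are unique molecular identifiers (UMIs), which number transcript molecules, not reads. The 8 mice gave 868 to 6544 cells each, with a median of 1356 to 1948 UMIs per cell. Values of single mice are given in the order of replicates 1 to 5 for the B6→B6 and 1 to 3 for the HLA→B6 group. Foxp3-positive T cells numbered 6, 4, 11, 9 and 5 in the B6→B6 mice and 31, 15 and 4 in the HLA→B6 mice, so only B6→B6 replicate 3, HLA→B6 replicate 1 and HLA→B6 replicate 2 held at least 10. These cells had a median of 1589 UMIs, and all 85 together 158292. The comparison class, T cells with at least 1 Cd4 count and none of Foxp3, Cd8a or Cd8b1, held 563 cells with a median of 1735 UMIs. In the 3 mice with at least 10 cells of both classes the median depth per cell averaged 1507 UMIs in the Foxp3-positive and 1737 in the Foxp3-zero Cd4-positive cells, a difference of -230.5 UMIs (exact permutation of signs, p = 0.5; 3 mice cannot go below 0.25). Over all 8 mice the difference was -0.625 UMIs (exact permutation of signs, p = 0.992).

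Some cell barcodes were found in libraries of more than 1 mouse. A set of 4 libraries was joined by such barcodes, pair by pair: B6→B6 replicate 3 with the first 2 B6→B6 mice, those with each other, and both of those with HLA→B6 replicate 2, with 160 shared between B6→B6 replicate 2 and HLA→B6 replicate 2. Among the Foxp3-positive T cells 6 had a barcode also found in another mouse, as had 22 of the Foxp3-zero Cd4-positive cells. Results are given without such cells where this changed them. Scrublet, which scores likely doublets, marked 1 of the 85 cells, and doublets were kept.

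Foxp3, on chromosome X from 7573644 to 7595245 (plus strand, GRCm38), was read at the limit of this depth. Of the 85 cells 59 had 1 Foxp3 UMI, 16 had 2 and 10 had 3 or more, with 5 as the highest. Levels were read from sums over the cells of a class in a mouse, scaled to 1000000 UMIs per sum (CPM). Foxp3 came to 1227, 862, 757, 775 and 519 CPM in the B6→B6 and 720, 965 and 693 CPM in the HLA→B6 mice. These values follow from the choice of the cells and describe them only. Just outside the rule lay 7 Foxp3-positive T cells with a Cd8a or Cd8b1 count, of which 4 had an Ikzf2 UMI and 0 an Il2ra UMI. Cd4 itself was detected in 21 of the 85 cells (24.7%). Among cells with 1 Foxp3 UMI 81.4% had an Ikzf2 and 27.1% an Il2ra UMI, and 8.47% had neither. Of the 26 cells with 2 or more Foxp3 UMIs 80.8% had Ikzf2, 7.69% Il2ra and 19.2% neither.

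Foxp3 UMIs were scarce in cell types that should lack the gene. They were present in 1.81% of all T cells (92 cells, median 1648 UMIs), in 3 of 2286 B cells (0.131%, median 1597.5 UMIs), in 3 of 2494 alveolar macrophages (0.120%, median 2791.5 UMIs) and in 3 of 5514 structural cells (0.0544%, median 1126.5 UMIs). The exception was the type labelled myeloid cell, described at the end.

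Genes of the T cell receptor complex were detected in most of these cells. Cd3d was detected in 82.4% of the Foxp3-positive cells, 83.7% of the Foxp3-zero Cd4-positive and 82.7% of the CD8 T cells (Cd8a or Cd8b1 count, no Foxp3), and Trac in 83.5%, 82.1% and 70.8%. All 85 cells fell into 1 of the authors' T cell clusters, numbered 1, which also held 535 of the 563 Foxp3-zero Cd4-positive cells.

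Il2ra and Ikzf2, markers of regulatory T cells that did not choose the cells, were both more often detected in them than in the Foxp3-zero Cd4-positive cells of the same mouse. Ikzf2 (chromosome 1, 69531214 to 69687245, minus strand) was detected in 83.3%, 100%, 72.7%, 44.4% and 80% of the Foxp3-positive cells of the B6→B6 mice and in 87.1%, 93.3% and 75% of those of the HLA→B6 mice. The shares in the Foxp3-zero Cd4-positive cells were 4.35%, 1.59%, 8%, 11.8% and 5.88% in the B6→B6 mice and 27.7%, 13.4% and 25.9% in the HLA→B6 mice. The mean was 79.5% ± 16.8 against 12.3% ± 9.72 (SD, n = 8), higher in 8 of 8 mice with no overlap of the classes (exact permutation of signs, p = 0.0078125, the smallest that 8 mice allow).

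Il2ra (chromosome 2, 11642807 to 11693193, plus strand) was detected in fewer cells. The shares were 33.3%, 25%, 18.2%, 11.1% and 20% in the B6→B6 mice and 22.6%, 13.3% and 50% in the HLA→B6 mice, the last from 4 cells, against at most 6% of the Foxp3-zero Cd4-positive cells of any mouse. The mean was 24.2% ± 12.5 against 2.00% ± 2.30 (SD, n = 8), higher in 8 of 8 mice (exact permutation of signs, p = 0.0078125). In CD8 T cells, with a median of 1623.5 UMIs, Il2ra was detected in 0.736% and Ikzf2 in 10.0% of cells.

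With cells of at least 1000 UMIs, 74 of the 85, thinned to 1000 and shallower cells left out, the means were 14.6% against 0.829% for Il2ra. For Ikzf2 they were 64.6% against 7.99%. Among the 85 cells 12 had both transcripts and 10 had neither. In the Foxp3-zero Cd4-positive class 92 of 563 cells had Ikzf2 and 13 had Il2ra, 3 of them both. How many of these are regulatory T cells whose Foxp3 was missed at this depth was not tested.

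**Figure D1:**
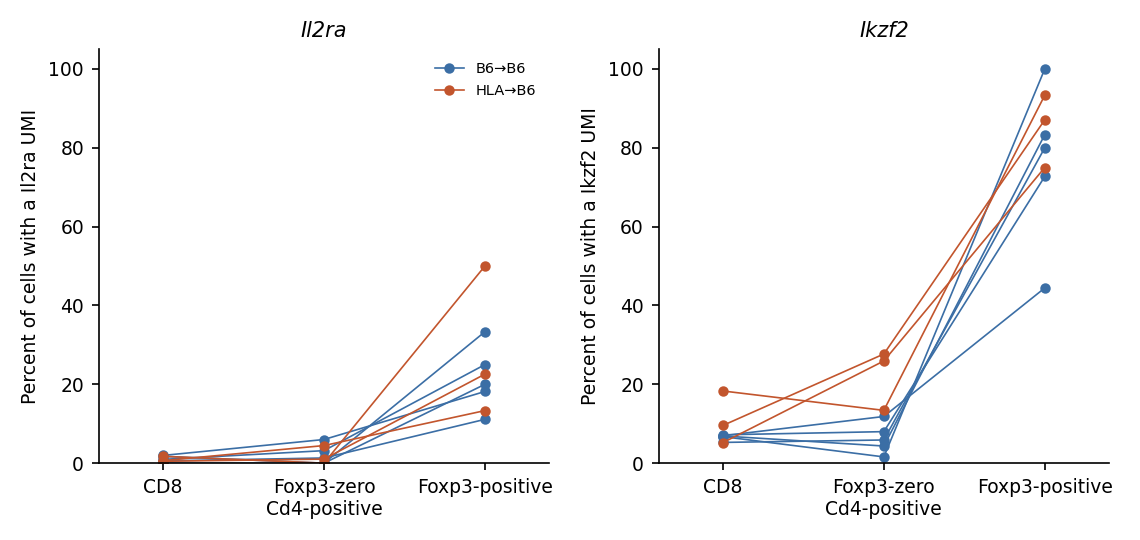
Percent of cells with an Il2ra (left) or Ikzf2 (right) UMI in CD8, Foxp3-zero Cd4-positive and Foxp3-positive T cells; each line is 1 mouse, coloured by transplant group. In all 8 mice both shares are highest in the Foxp3-positive cells.

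No difference between the transplant groups in the share of Foxp3-positive cells was detected beyond the spread between mice. They made up 3.35%, 1.17%, 2.58%, 0.612% and 3.40% of the T cells in the B6→B6 mice and 2.70%, 1.33% and 1.73% in the HLA→B6 mice. The values of the HLA→B6 mice lay within the range of the B6→B6 mice. With these few cells a single share was loose: the exact (Clopper-Pearson) 95% interval, which covers counting error only, was 1.24% to 7.15% in B6→B6 replicate 1 and 0.474% to 4.37% in HLA→B6 replicate 3.

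The B6→B6 mean was 2.22% ± 1.27 (SD, n = 5) and the HLA→B6 mean 1.92% ± 0.707 (SD, n = 3), a difference of -0.304 percentage points (exact permutation test over all 56 splits, two-sided, p = 0.768, adjusted over both shares 0.768; 0.0179 is the smallest possible). Within the linked and the unlinked libraries the mean difference was -0.416 points (exact permutation test, p = 0.708). Without cells that share a barcode it was 0.0187 and at 1000 UMIs per cell 0.110 points, so its direction turned. As a share of Foxp3-positive plus Foxp3-zero Cd4-positive cells the mean was 15.6% ± 7.08 (SD, n = 5) against 12.8% ± 0.956 (SD, n = 3), a difference of -2.79 points (exact permutation test, p = 0.536), -3.22 within the linked and unlinked libraries and 0.761 at 1000 UMIs per cell.

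**Figure D2:**
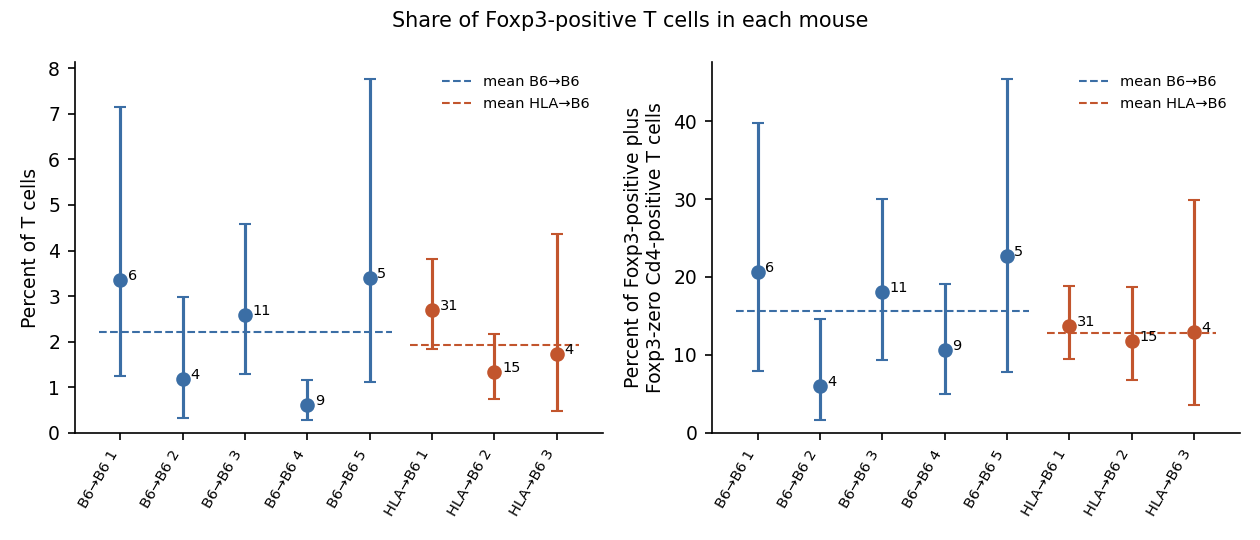
Foxp3-positive cells in each mouse as percent of T cells (left) and of Foxp3-positive plus Foxp3-zero Cd4-positive T cells (right), with exact 95% intervals, the number of Foxp3-positive cells beside each point and dashed lines at the group means. The HLA→B6 values lie within the range of the B6→B6 values in both panels.

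Foxp3-positive cells were then compared with the Foxp3-zero Cd4-positive cells of the same mouse across all genes, to ask which transcripts set them apart from other CD4 T cells. UMIs were summed per mouse and class in the 3 mice with at least 10 cells of both, and edgeR's quasi-likelihood test was run with the mouse as a block. Fold changes are log2, with TMM normalization, and adjusted p values are by Benjamini-Hochberg over all genes tested. Of 1165 genes with enough counts 87 passed an adjusted p under 0.05 (7.47%), 33 higher (2.83%) and 54 lower (4.64%) in the Foxp3-positive cells, and 202 had an unadjusted p under 0.05. The median change over all genes was 0.01. The count rests on HLA→B6 replicate 2: without it 0 genes passed (135 at an unadjusted p under 0.05), against 63 when B6→B6 replicate 3 was left out and 94 when HLA→B6 replicate 1 was, each with 1 residual degree of freedom. With all 8 mice, a fit added after the data were seen, 40 of 549 genes passed (7.29%). Of the 87 genes 66 were tested there, of which 65 kept their sign and 30 passed. DESeq2 called 24 genes, all among the 87.

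Itgae, Ikzf2 and Ctla4 had the 3 largest rises among the genes past the threshold. Of 6 tested among 23 Foxp3 partners and lineage transcription factors, 1 rose and 1 fell (median 0.16). Ikzf2 rose by 3.11 (SE 0.26, edgeR adjusted p = 6.2e-17), and by 3.30 with all 8 mice. Ikzf1, which encodes the related factor Ikaros, was 1.39 lower (SE 0.46, adjusted p = 0.048 by edgeR), a call that held in 6 of 12 alternatives. Gata3, a type 2 helper factor also used by tissue regulatory T cells, was 0.72 higher and did not pass (edgeR adjusted p = 0.39).

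Of 20 suppressive molecules 5 could be tested, and 1 rose (median -0.27). This was Ctla4 (chromosome 1, 60887000 to 60915832, plus strand), with 669, 1509, 805, 352 and 74 CPM in the Foxp3-positive cells of the B6→B6 mice and 498, 965 and 198 in those of the HLA→B6 mice. The Foxp3-zero Cd4-positive cells had 72, 47, 71, 103 and 22 in the B6→B6 and 190, 120 and 260 in the HLA→B6 mice. It was higher in the Foxp3-positive cells of 7 of 8 mice, all but HLA→B6 replicate 3 with its 4 cells, and rose by 2.27 (SE 0.31, edgeR adjusted p = 1.4e-08). The precision of such values is low: 1 UMI is worth 112 CPM in B6→B6 replicate 1 and 18.5 in HLA→B6 replicate 1. Tgfb1, which encodes the cytokine TGF-β1, was 0.97 lower without passing (edgeR adjusted p = 0.24). Il10, the gene of interleukin-10, had UMIs in 3 of the 85 cells and in 10 of the 563.

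Receptors of the TNF family rose in 3 cases. Of 9 tested among 18 TNF receptor family and co-stimulation genes 3 rose and 0 fell (median 0.64). Tnfrsf4, which encodes the co-stimulatory receptor OX40, had 1115, 1832, 852, 352 and 296 CPM in the Foxp3-positive cells of the B6→B6 mice and 1791, 1967 and 297 in the HLA→B6 mice. The Foxp3-zero Cd4-positive cells had 0, 87, 101, 125 and 133 in the B6→B6 and 611, 485 and 927 in the HLA→B6 mice, so that HLA→B6 replicate 3 was again the exception.

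The rise of Tnfrsf4 was 1.88 (SE 0.23, edgeR adjusted p = 4.6e-10). Tnfrsf18 (GITR) rose by 1.40 (SE 0.24, adjusted p = 8.9e-06 by edgeR), higher in 6 of 8 mice, and Tnfrsf1b (TNF receptor 2) by 1.73 (SE 0.46, adjusted p = 0.0066 by edgeR), with UMIs in only 14 of the 85 cells. Tnfrsf9, which encodes 4-1BB, was too low for the filter on counts. Without that filter it was 2.77 higher in the 3 mice (edgeR adjusted p = 5.9e-07), with UMIs in 20 of 85 against 17 of 563 cells over all 8. The median change of the 12076 genes in that unfiltered fit was -0.63, against 0.01 with the filter. Icos, another co-stimulatory receptor, was 0.64 higher in the 3 mice (edgeR adjusted p = 0.21) and 0.92 higher with all 8 (edgeR adjusted p = 0.024).

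Of 19 other signature genes of regulatory T cells 7 were tested, and 3 rose: Itgae, Izumo1r and Capg (median 1.07). Itgae encodes CD103, an integrin that holds T cells to epithelium through E-cadherin. It had 112, 216, 331, 141 and 222 CPM in the Foxp3-positive cells of the B6→B6 mice and 185, 148 and 198 in the HLA→B6 mice, against 0 to 44.4 in the Foxp3-zero Cd4-positive cells of the 8 mice. The classes did not overlap, 20 of 85 against 9 of 563 cells had a UMI, and the rise was 3.65 (SE 0.53, edgeR adjusted p = 1.0e-07).

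Izumo1r, the gene of folate receptor 4, which is known on regulatory T cells, was higher in 8 of 8 mice. Its level was 892, 216, 710, 282 and 593 CPM in the B6→B6 and 831, 1039 and 890 in the HLA→B6 mice, against 478, 67, 172, 273 and 155 and against 305, 258 and 148. The rise was 1.69 (SE 0.26, edgeR adjusted p = 8.2e-07). Capg, an actin-capping protein gene, rose by 1.27 (SE 0.24, adjusted p = 6.4e-05 by edgeR). Outside the lists, Pglyrp1 (peptidoglycan recognition protein) rose by 2.01 (SE 0.35, adjusted p = 8.9e-06 by edgeR) and Pim1, a kinase gene induced by cytokines through STAT5, by 1.40 (SE 0.28, adjusted p = 0.00013 by edgeR), both higher in 8 of 8 mice.

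The interleukin-2 receptor and its signalling gave 5 tested of 13 genes, of which 0 rose and 1 fell (median 0.01). Il2ra failed the filter on counts, and without the filter was 3.07 higher (SE 0.64, edgeR adjusted p = 0.00038). Il2rb, the shared beta chain, was higher in 8 of 8 mice but by 0.62 in the 3 mice (edgeR adjusted p = 0.28), and by 1.03 with all 8 (edgeR adjusted p = 0.033). Bcl2, a survival gene, fell by 1.79 (SE 0.41, adjusted p = 0.0011 by edgeR), although in HLA→B6 replicate 3 it stood at 890 against 260 CPM.

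**Figure D3:**
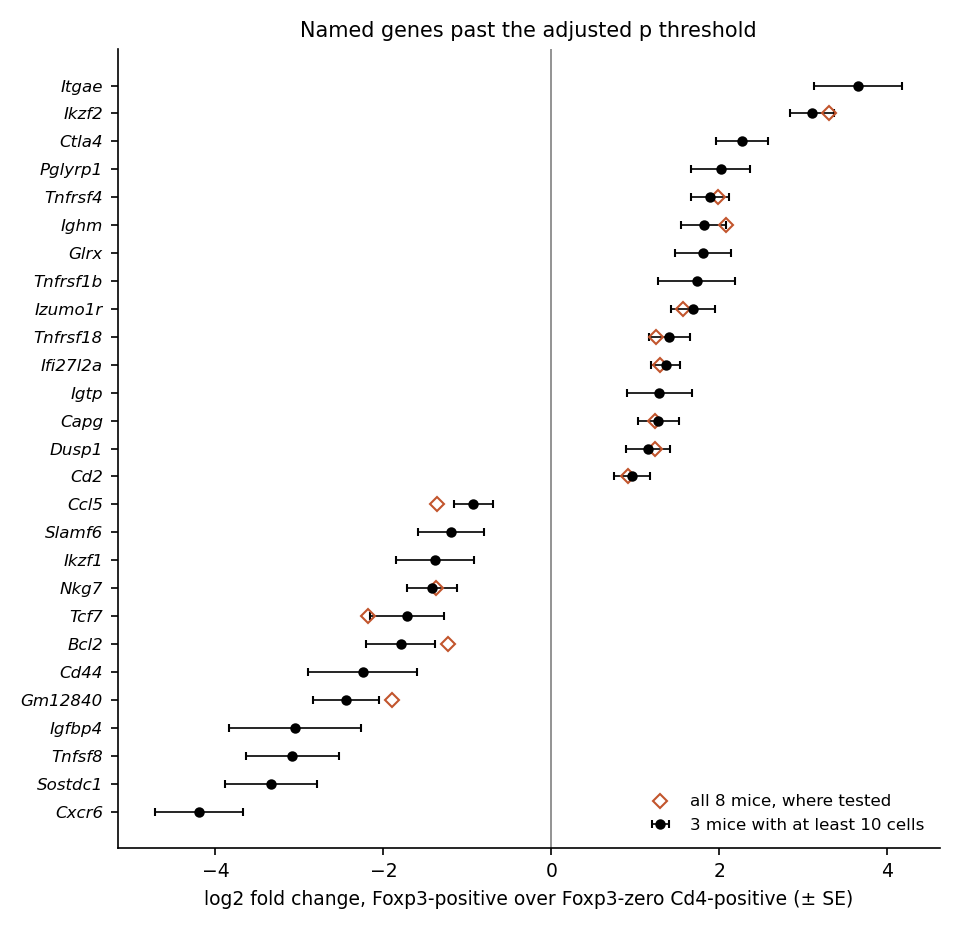
Log2 fold change of named genes past the threshold in the comparison of Foxp3-positive with Foxp3-zero Cd4-positive T cells: black points with SE for the 3 mice with at least 10 cells of both classes, open diamonds for all 8 mice where the gene was tested. Itgae and Ikzf2 have the largest rise and Cxcr6 the largest fall; Spp1, at 0 UMIs in the Foxp3-positive cells of the 3 mice, is left out.

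Resting and central T cell genes were lower where they differed. Of 12 tested among 16, 0 rose and 2 fell (median -0.46). Tcf7, which encodes TCF-1, a factor of naive and memory T cells, had 112, 0, 237, 70.4 and 74.1 CPM in the Foxp3-positive cells of the B6→B6 mice and 92.3, 0 and 0 in the HLA→B6 mice. In the Foxp3-zero Cd4-positive cells it lay between 238 and 501 in all 8 mice, so the classes did not overlap. It fell by 1.72 (SE 0.45, adjusted p = 0.0055 by edgeR), and by 2.19 with all 8 mice. Tcf7 was detected in 8 of 85 against 239 of 563 cells. Igfbp4, a further gene of this list, fell by 3.05 (SE 0.79, adjusted p = 0.0053 by edgeR) but had 423 CPM in the Foxp3-positive cells of B6→B6 replicate 4, against 332. Lef1, a partner of TCF-1, was lower in 8 of 8 mice, by 0.97 without passing (edgeR adjusted p = 0.091).

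Of 8 effector and tissue regulatory T cell genes tested among 18, 0 rose and 3 fell (median -0.60, and 0.24 over the 4 tested with all 8 mice). Cxcr6, the receptor for CXCL16 found on tissue-resident T cells, had 5 UMIs in 4 of the 85 cells against 484 UMIs in 178 of the 563. Its level was 223, 0, 0, 0 and 0 CPM in the B6→B6 and 36.9, 37.1 and 0 in the HLA→B6 mice, against 239, 767, 375, 14.7 and 66.6 and against 556, 587 and 223. It was lower in 8 of 8 mice. In the 3 fitted mice, with 3 UMIs against 342, the level was 18.4-fold higher in the Foxp3-zero Cd4-positive cells (95% interval from counting 6.23 to 89.5, edgeR adjusted p = 1.1e-09).

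Tnfsf8, the gene of CD30 ligand, fell by 3.08 (SE 0.55, adjusted p = 1.8e-05 by edgeR), was lower in 8 of 8 mice, and had UMIs in 4 of 85 against 126 of 563 cells. Cd44, an adhesion receptor of activated T cells, fell by 2.25 (SE 0.65, adjusted p = 0.016 by edgeR), but in B6→B6 replicates 1, 2 and 5 it stood higher in the Foxp3-positive cells, at 335, 216 and 74.1 CPM against 71.6, 153 and 44.4. Klrg1, a receptor of terminally differentiated lymphocytes and of tissue regulatory T cells, was below the filter. It had UMIs in 11 of 85 (12.9%) against 4 of 563 cells (0.711%), and without the filter was higher (edgeR adjusted p = 0.0075). In the 3 fitted mice it had 11 UMIs against 0, at least 22.8-fold higher against a floor of 3 counts over the class.

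Of 16 listed conventional helper cytokines and CD40 ligand 13 were measured and 1 could be tested, Ltb (lymphotoxin beta), which was 0.37 higher and did not pass (edgeR adjusted p = 0.28). The list summed to 1731 CPM over the Foxp3-positive and 1443 over the Foxp3-zero Cd4-positive cells. Of the genes too low for the filter, Cd40lg and Ifng are given here, chosen after their values were seen. Cd40lg, through which helper cells license B cells, had UMIs in 2 of 85 against 94 of 563 cells over the 8 mice. In the 3 fitted mice it had 1 UMI against 62. Without the filter on counts it was 3.67 lower there (edgeR adjusted p = 0.019), in a fit whose median change was -0.63. Ifng, the gene of interferon-γ, was found in 0 of 85 cells, which allows a share of up to 3.53% of cells with a UMI and says nothing of cells that express it below this depth, against 33 of 563 (edgeR adjusted p = 0.37 without the filter). Spp1, which encodes osteopontin, had 0 UMIs in the Foxp3-positive cells of the 3 fitted mice against 392, at least 21.1-fold higher in the Foxp3-zero Cd4-positive cells against a floor of 3 counts over the class, but those UMIs lay in few cells (37 of 563 over the 8 mice, in which the Foxp3-positive cells had 2 UMIs).

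**Figure D4:**
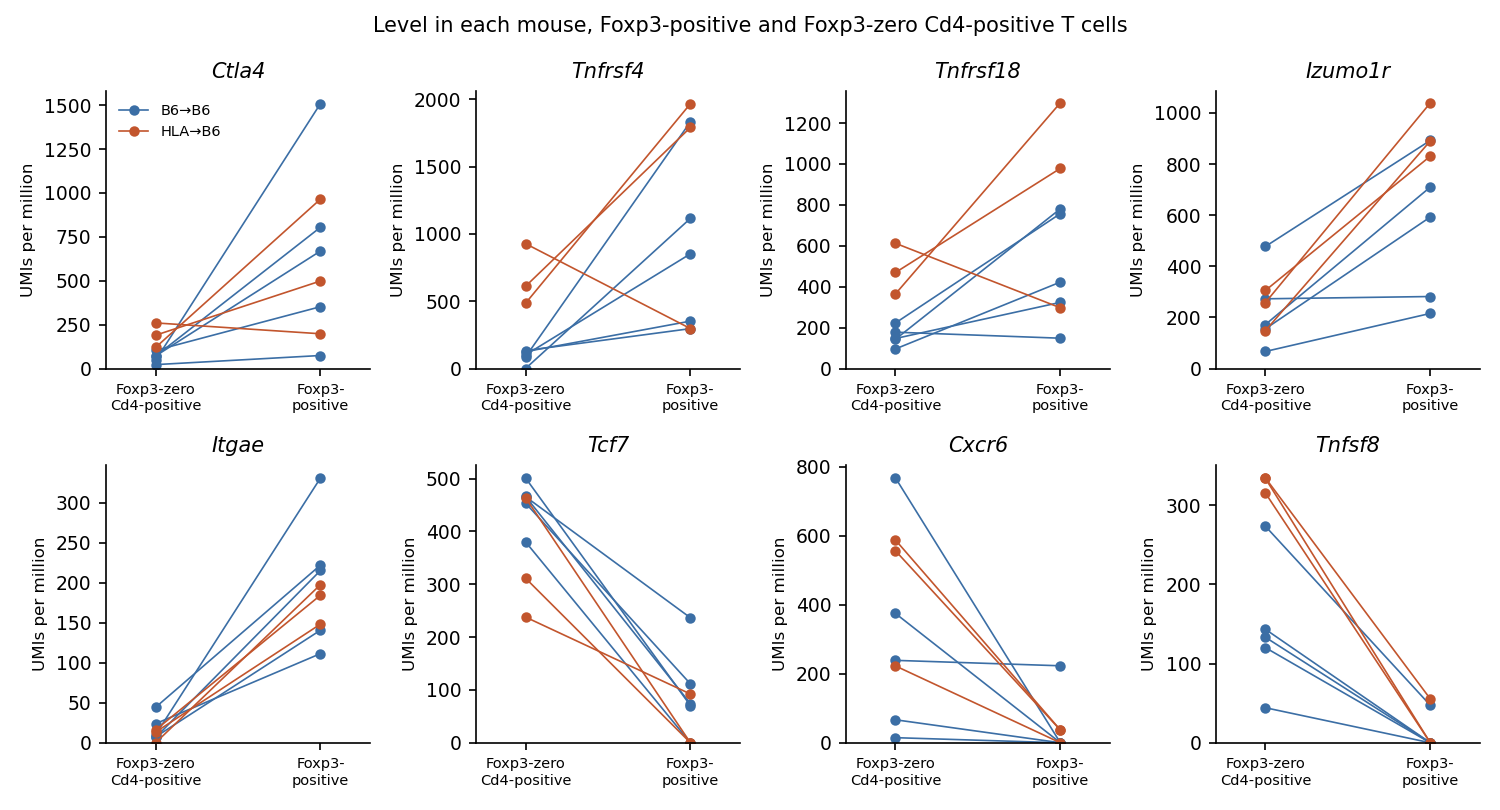
CPM in the Foxp3-zero Cd4-positive (left) and Foxp3-positive (right) T cells of each mouse for 8 genes; lines join the classes of 1 mouse. Itgae and Izumo1r rise in 8 of 8 mice, and Tcf7, Cxcr6 and Tnfsf8 fall in 8 of 8.

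Among 8 tested of 23 interferon response genes 2 rose and 0 fell (median 0.47). Ifi27l2a rose by 1.36 (SE 0.18, adjusted p = 5.0e-09 by edgeR) and Igtp, an interferon-inducible GTPase gene, by 1.28 (SE 0.39, adjusted p = 0.023 by edgeR). All 13 tested MHC class I presentation genes were higher (median 0.30), but 0 of them passed in edgeR. Of 11 chemokine receptor and homing genes tested among 22, only Cxcr6 passed (median 0.03). The other lists gave 1 call higher of 13 tested T cell identity genes (Cd2, 0.96, median of the list -0.03), 1 lower of 5 T follicular genes (Slamf6, -1.20, not lower in each of the 3 mice and called in 5 of 16 alternatives, median -0.82), 1 higher of 9 immediate early genes (Dusp1, 1.15, median 0.08) and 0 of 2 each for cell cycle and T cell receptor response. Mki67, the proliferation marker, had UMIs in 2 of the 85 cells.

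Ribosomal protein genes, grouped after their values were seen, were lower in 31 of 81 tested and higher in 0 (median -0.40), and 78 of the 81 were negative, also with RLE size factors and with DESeq2. DESeq2 called 2 of them, and the fit of all 8 mice 3 of 80 (median -0.21). Mitochondrially encoded genes were lower in 5 of 9 (median -0.70), in 3 of 8 with all 8 mice (median -0.58).

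Ighm, the gene of the IgM heavy chain, rose with the regulatory T cell genes. It had 1450, 970, 568, 775 and 148 CPM in the Foxp3-positive cells of the B6→B6 mice and 683, 1707 and 495 in the HLA→B6 mice, against 119 to 155 and 167 to 315 in the Foxp3-zero Cd4-positive cells. It was higher in 7 of 8 mice and detected in 54 of 85 (63.5%) against 139 of 563 cells (24.7%) and 28.2% of CD8 cells. The rise was 1.81 (SE 0.27, edgeR adjusted p = 2.0e-07), and 2.08 with all 8 mice. Of the 12 B cell markers listed 5 had a UMI in the 85 cells, and those at 0 included Ms4a1, Pax5, Ebf1, Igkc, Fcer2a and Cd22. The summed markers, Ighm included, lay at 148 to 1450 CPM in the B6→B6 and 495 to 1707 in the HLA→B6 mice, against 119 to 182 and 260 to 412 in the Foxp3-zero Cd4-positive cells. Without Ighm they lay at 0 to 111 CPM in the Foxp3-positive and 0 to 96.5 in the Foxp3-zero Cd4-positive cells of the 8 mice. The authors used Ighm among the genes for removing free RNA with SoupX, and whether the deposited counts are from before or after that step is not stated. Those counts hold 17 cells under 200 UMIs, although the authors left out barcodes below that number. The part of free RNA in the Ighm result was not tested.

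Markers of other cells were checked among the 85 cells. Of 12 NK and CD8 cytotoxic markers 7 had a UMI, with Klrb1c, Klra8, Prf1, Klrd1 and Eomes at 0. Of the 2 tested both were lower (median -1.17): Nkg7, which encodes a granule protein, by 1.42 (edgeR adjusted p = 0.00024, lower in 8 of 8 mice) and Ccl5, a chemokine of effector T and NK cells, by 0.93 (edgeR adjusted p = 0.0045). The call of Ccl5 held in 11 of 24 alternatives, over which its change ran from -3.04 to -0.47, and its mean in the HLA→B6 mice was 1295 CPM in the Foxp3-positive against 1105 in the Foxp3-zero Cd4-positive cells. Of 14 macrophage and monocyte markers 5 had a UMI, with a summed level of 0 to 323 CPM in the B6→B6 and 258 to 1286 in the HLA→B6 mice. Pooled over mice it was 385 CPM, against 281 in the Foxp3-zero Cd4-positive cells, and the defining genes Csf1r, Cd68, Itgam, Adgre1 and Mrc1 were at 0. Group 2 innate lymphoid cell markers, 5 of 8 measured with a UMI, summed to 141 to 1227 and to 0 to 351, pooled 398 against 238 CPM. Structural cell markers, 6 of 10, summed to 0 to 493 and 74.2 to 314, pooled 208 against 355 CPM. The part of such cells in the results was not tested. Gamma-delta T cell and red blood cell markers were at 0 in all 8 mice, and dendritic cell markers had a UMI in 1 gene.

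Against the CD8 T cells of the same 3 mice, with the same Foxp3-positive libraries, 235 of 3035 genes passed in edgeR (7.74%), 90 higher (2.97%) and 145 lower (4.78%). The count was 71 without HLA→B6 replicate 1 and 136 with HLA→B6 replicate 2 left out, and DESeq2 called 154. Il2ra could be tested here and rose by 5.34 (SE 0.46, edgeR adjusted p = 3.3e-11), from 0 to 11.2 CPM in CD8 cells to 74.1 to 594 in the Foxp3-positive cells of the 8 mice. All 13 tested TNF receptor family and co-stimulation genes were higher (median 0.80), and 6 passed, with Tnfrsf4 at 5.10 (SE 0.29), Tnfrsf18 at 2.58 (SE 0.26) and Icos at 2.06 (SE 0.32). Of 9 suppressive molecules 3 rose (median 0.13): Ctla4 by 3.11, Nt5e by 2.12 and Nrp1, which encodes neuropilin-1, by 1.62 (edgeR adjusted p = 0.0495). The call of Nrp1 held in only 1 of 10 alternatives, with adjusted p values up to 0.77. Nt5e encodes CD73, which makes adenosine from AMP.

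Of 13 transcription factors 5 rose against CD8 cells (median 0.76), Ikzf2, Maf, Hif1a, Runx1 and Gata3, and Runx3, the factor of the CD8 lineage, fell by 3.44 (SE 0.73, edgeR adjusted p = 0.00089). The cytotoxic markers fell in 6 of 6 tested, with Nkg7 lower by 3.82 (SE 0.26) and Ccl5 by 4.90 (SE 0.25). The median of the 6 was -6.84, and -3.90 with genes at 0 set at their bound. Klrd1, which encodes the NK receptor CD94, had 0 UMIs in the 85 cells and 1715 in the CD8 cells, at least 19.0-fold higher there against a floor of 3 counts over the class. Ribosomal protein genes were lower in 77 of 84 against CD8 cells and mitochondrially encoded genes in 8 of 11.

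Between the transplant groups the Foxp3-positive cells could be compared across genes in only 3 mice with at least 10 of them, 2 HLA→B6 and 1 B6→B6, in which the single B6→B6 mouse is taken to vary like the others. Of 571 genes 4 were higher in HLA→B6 mice (0.701%), 0 were lower, and 49 had an unadjusted p under 0.05. DESeq2 called 0 (6 at an unadjusted p under 0.05). In the 6 mice with at least 5 cells, 4 of 311 passed (1.29%), and with all 8 mice 1 of 223 (0.448%). Leaving a mouse out could not be fitted with 3 mice. With all 8 it gave 0 to 3 calls.

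Ly6a, which encodes Sca-1, a surface protein induced by interferons, had 335, 539, 142, 0 and 371 CPM in the Foxp3-positive cells of the B6→B6 mice and 1329, 3192 and 198 in those of the HLA→B6 mice. HLA→B6 replicate 3, with 4 cells, lay among the B6→B6 mice and the other two above them. Ly6a was detected in 4 of the 35 cells from B6→B6 and 32 of the 50 from HLA→B6 mice, and the difference was 3.92 (SE 0.61, edgeR adjusted p = 1.9e-07) in the 3 mice and 3.51 (edgeR adjusted p = 0.00025) in the 6 mice. The Foxp3-zero Cd4-positive cells moved the same way, from 375 ± 221 (SD, n = 5) to 1203 ± 140 (SD, n = 3), a rise of 1.52 (SE 0.32, edgeR adjusted p = 0.043). Ly6a was among the genes that the authors gave SoupX for structural cells.

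Serpina3g, a serine protease inhibitor gene of activated lymphocytes, had 0, 216, 94.7, 0 and 0 CPM in the B6→B6 and 683, 928 and 198 in the HLA→B6 mice, with UMIs in 2 of 35 and 21 of 50 cells. Serpina3g was 3.04 higher (SE 0.81) in the 3 mice and 4.36 higher in the 6 mice (edgeR adjusted p = 0.0020). The fit of 6 mice leaves out B6→B6 replicate 2 and HLA→B6 replicate 3, whose 216 and 198 CPM overlap. Its call held in 4 of 7 alternatives. Fth1, the ferritin heavy chain gene, had 335, 1186, 521, 352 and 296 against 1569, 3340 and 989 and rose by 2.20 (SE 0.46, edgeR adjusted p = 0.00051) in the 3 mice. With all 8 mice it was 2.02 higher and did not pass (edgeR adjusted p = 0.11), and it passed in 7 of 17 alternatives. S100a8, a neutrophil gene, passed only through 58 UMIs in 1 cell of HLA→B6 replicate 1.

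Ccl5 was the gene that passed with all 8 mice. Its level in the Foxp3-positive cells was 0, 0, 237, 211 and 0 CPM in the B6→B6 and 868, 1039 and 1979 in the HLA→B6 mice, and the groups did not overlap. The mean was 89.6 ± 123 (SD, n = 5) against 1295 ± 598 (SD, n = 3). UMIs lay in 3 of 35 and 18 of 50 cells, but all 20 of HLA→B6 replicate 3 lay in 1 cell. The difference was 3.40 (SE 0.67, edgeR adjusted p = 0.025) with all 8 mice, 2.78 (edgeR adjusted p = 0.0080) in the 6 and 2.01 (edgeR adjusted p = 0.097) in the 3. With each of the 8 mice left out in turn it ran from 3.05 to 4.23 and passed without B6→B6 replicate 2, B6→B6 replicate 3 or HLA→B6 replicate 3, while in the other 5 cases edgeR's adjusted p was between 0.054 and 0.11. The other cytotoxic markers, summed without Ccl5, lay at 112, 108, 189, 423 and 148 CPM in the B6→B6 and 369, 334 and 297 in the HLA→B6 mice, which overlap; their part in the result was not tested.

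Ccl5 in the Foxp3-zero Cd4-positive cells had 2111 ± 2059 CPM (SD, n = 5) in the B6→B6 group and 1105 ± 299 CPM (SD, n = 3) in the HLA→B6 group, and 245 of the 250 UMIs of B6→B6 replicate 5 came from 1 cell. The HLA→B6 effect on Ccl5 was 2.81 higher in the Foxp3-positive than in the Foxp3-zero Cd4-positive cells (SE 0.62, edgeR adjusted p = 0.0064) and 4.14 higher with all 8 mice (edgeR adjusted p = 0.0023). For Ly6a the effects differed by 2.85 (SE 0.72, edgeR adjusted p = 0.044), but by 0.91 with all 8 mice (edgeR adjusted p = 1.00). The 3 mice are 2 HLA→B6 and 1 B6→B6, with 1 residual degree of freedom. These were the only 2 of 1165 genes past the threshold for a difference of effects (0.172%), and without cells that share a barcode edgeR called 0 (54 at an unadjusted p under 0.05).

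**Figure D5:**
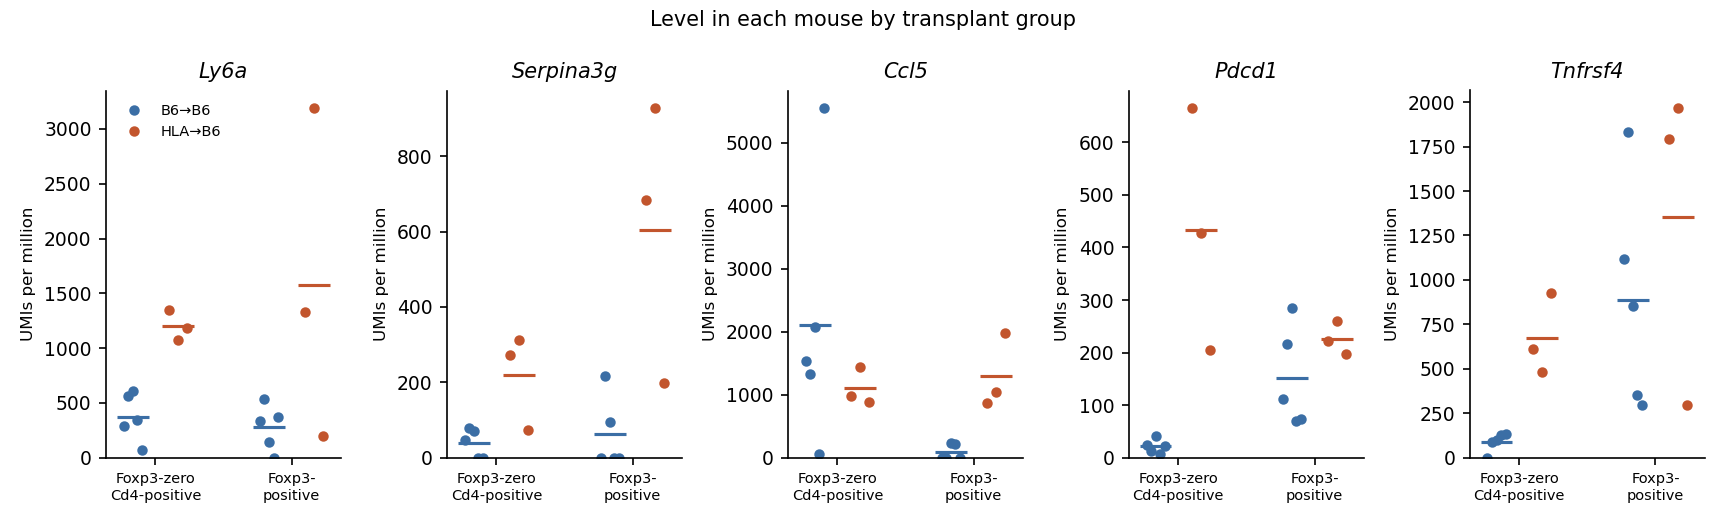
CPM of 5 genes in the Foxp3-zero Cd4-positive (left pair) and Foxp3-positive (right pair) T cells of each mouse, B6→B6 in blue and HLA→B6 in orange, with lines at the group means. Comparisons without overlap of the groups include Ccl5 in the Foxp3-positive cells, where 1 of the 3 HLA→B6 points comes from a single cell. They also include Pdcd1, Tnfrsf4 and Ly6a in the Foxp3-zero Cd4-positive cells.

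Among the Foxp3-zero Cd4-positive cells of all 8 mice 11 of 1924 genes were higher in HLA→B6 mice (0.572%) and 0 lower by edgeR. Only 4 of the 11 could be tested between the groups in the Foxp3-positive cells, of which Ly6a was called, and Tnfrsf4, Tnfrsf18 and AW112010 were not. Pdcd1, which encodes the inhibitory receptor PD-1, rose there by 4.45 (SE 0.44, edgeR adjusted p = 1.5e-05), from 23.9, 13.3, 40.5, 7.37 and 22.2 to 666, 427 and 204 CPM. In the Foxp3-positive cells it had 112, 216, 284, 70.4 and 74.1 in the B6→B6 and 222, 260 and 198 in the HLA→B6 mice, which overlap, and was too low for a test between the groups. The test of the difference of effects, over both classes, gave -4.04 (SE 1.08) and did not pass (edgeR adjusted p = 0.074).

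Tnfrsf4 rose in the Foxp3-zero Cd4-positive cells by 2.69 (SE 0.37, edgeR adjusted p = 0.00065). In the Foxp3-positive cells, whose B6→B6 level was already 890 ± 629 against 89.3 ± 53.3 (SD, n = 5), it was 1.16 higher in HLA→B6 mice (edgeR adjusted p = 0.26), and the difference of effects was -1.31 (edgeR adjusted p = 1.00). Lag3, an inhibitory receptor gene, rose by 2.98 in the Foxp3-zero Cd4-positive cells (edgeR adjusted p = 0.00065). With Foxp3-positive cells pooled over mice it was detected in 5.71% of the B6→B6 and 28% of the HLA→B6 cells, too few for a test.

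The lists of regulatory T cell genes had few tested members between the groups, and with 0.701% of all genes called their counts of 0 say little. Of the 7 tested TNF receptor family and co-stimulation genes 0 passed in edgeR (median 0.59), as did 0 of 2 suppressive molecules (median -0.10), 0 of 3 effector and tissue genes (median -0.98) and 0 of 4 resting genes (median -1.48), beside a median of -0.01 over all genes. Among interferon response genes 1 of 5, Ly6a, passed (median 1.42), and 11 tested MHC class I genes gave 0 calls (median 0.55). S100a4, a calcium-binding protein gene of effector cells, stood at 1097 ± 664 (SD, n = 5) against 284 ± 296 (SD, n = 3) CPM, a difference of -1.33 that did not pass (edgeR adjusted p = 0.26). Klrg1 was found in 7 of 35 (20%) and 4 of 50 cells (8%), and Il1rl1, which encodes the interleukin-33 receptor ST2 of tissue regulatory T cells, in 6 and 1. These counts pool cells over mice, with 31 of the 50 from HLA→B6 replicate 1, and say nothing of the spread between mice.

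Outside the T cell label 11 of 755 cells labelled myeloid cell had a Foxp3 UMI (1.46%, exact 95% interval 0.729% to 2.59%, and 0.622% at 1000 UMIs per cell). Of these 11 cells 10 had a Cd3d and 10 a Trac UMI, 9 had Ikzf2, 7 Ctla4 and 7 Tnfrsf4. Of the myeloid genes checked, Lyz2, Itgax and Flt3 were each in 1 of the 11 cells and Csf1r in 0. H2-Ab1 was in 4 and Cd74 in 3, against 0 of the 85 Foxp3-positive T cells for both. Lyz2, H2-Ab1 and Cd74 were among the genes that the authors gave SoupX, and the part of that step in these counts was not tested. The other 744 cells of the label had Lyz2 in 25.4%, Itgax in 15.7%, Flt3 in 28.5% and Csf1r in 8.06%. H2-Ab1 was in 63.2% of those 744 cells and Cd74 in 71.9%. Mki67 was detected in 9 of 11, against 18.4% of the other 744 cells of that label, and their median depth was 6136 UMIs against 3400 in all cells of the label. They came from 5 mice, and 5 of them from HLA→B6 replicate 2. Counting them as members and as T cells changed the difference between the groups in the share of T cells from -0.304 to -0.403 points (exact permutation test, p = 0.643).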

How the data were processed

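The authors counted UMIs per gene and cell with Cell Ranger on mm10 (GRCm38), left out barcodes under 200 UMIs and genes in fewer than 3 cells, removed free RNA with SoupX and clustered with Seurat. The deposited table holds whole counts, and 0 columns of values were left unused. Cells took mouse and cell type from the authors' table of cells. HLA→B6 mice are numbered as there, and the numbers in their cell names differ. UMIs were summed per mouse and class and compared with edgeR 4.0.16 (R 4.3.3, TMM, filterByExpr with a minimum count of 10, quasi-likelihood test). Foxp3, Cd4, Cd8a and Cd8b1 were not tested. Shares were compared by exact permutation in Python 3.11.15 (scipy 1.17.1, numpy 2.4.6, pandas 2.3.3). Doublets were scored with Scrublet in scanpy 1.11.5 at an expected rate of 0.06. Thinning left out cells below the depth. It used expected values of random draws for shares and genes per cell, and a single random draw for the fit across genes. Of the gene names 98.8% are in GENCODE vM21, which gave the coordinates.

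The genes named are Il2ra and Ikzf2, per comparison and list up to 4 tested genes with the smallest p, and the 8 largest rises and 8 largest falls past 0.05 with the same direction in all mice or no overlap of groups. Genes below the filter, the ribosomal and mitochondrial groups, and per-gene remarks beyond the rule were chosen after values were seen. The cells and lists were chosen with earlier results of these data known. The methods were tested on simulated data. Alternatives were DESeq2 1.42.0, RLE, no filter, other minimum cell numbers and UMIs, shared-barcode cells or doublets left out, thinning, other comparison classes, no mouse block, a replicate block, linked libraries and each mouse left out. The fits of all 8 mice were added after the data were seen.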

Additional observations from a re-analysis of the deposited data

Results flagged for a closer look

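The effect of HLA→B6 against B6→B6 transplantation differed between Foxp3-positive and Foxp3-zero Cd4-positive T cells by edgeR's test of the difference for Ccl5, by 2.81, and for Ly6a, by 2.85 on the log2 scale. Both rest on 2 HLA→B6 mice and 1 B6→B6 mouse with 1 residual degree of freedom. With all 8 mice Ccl5 differed by 4.14 (edgeR adjusted p = 0.0023) and Ly6a by 0.91 (edgeR adjusted p = 1.00), and over 9 alternatives the calls held in 3 for Ccl5 and 1 for Ly6a. In the fit of all 8 mice single cells weigh on Ccl5. A single cell held nearly all its UMIs in the Foxp3-zero Cd4-positive cells of B6→B6 replicate 5, and another all of them in the Foxp3-positive cells of HLA→B6 replicate 3. Foxp3 was detected in 1.46% of the cells labelled myeloid, a type outside the T cell comparisons, above the 0.131% of B cells. Dixon's ratio flagged none of the 5 B6→B6 mice in the 8 measures tested, which were percentages and median UMIs per cell. The HLA→B6 mice and the levels of genes were not tested this way. Neither was the CD8 share of T cells, at 32.4%, 30.5%, 35.9%, 71.4% and 38.8% for the B6→B6 mice in order. Its highest value belongs to the mouse with the lowest Foxp3-positive share of T cells, 0.612%.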

How the results depend on the processing

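The limit of these data is the number of cells: 85 in 8 mice, with 4 to 31 per mouse. The difference in the share of T cells was reversed with shared-barcode cells left out (0.0187 points) and at 1000 UMIs per cell (0.110), and ran from -0.707 to -0.00700 with each mouse left out; the share of CD4 cells was reversed at 1000 UMIs (0.761) and ran from -5.20 to -1.01. At 500 UMIs both kept their direction (-0.0779 and -4.47). The causes were not tested. Median depth differed by -230.5 UMIs in the 3 mice with at least 10 cells of both classes and by -0.625 over all 8 mice. In the 3 mice it was -37.3 with means and -385.75 to -32.75 without 1 mouse each. Genes per cell at 1000 UMIs differed there by 26.3 in the other direction.

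Against Foxp3-zero Cd4-positive cells the count of genes past the threshold, 87, was 24 with DESeq2, 139 without the filter, 56 with at least 5 cells per mouse, 44 at 1000 UMIs per cell, 54 with no mouse as a block, 185 against all Foxp3-zero T cells without Cd8a and Cd8b1, 40 with all 8 mice and 30 with all 8 mice and no shared-barcode cells; without 1 mouse it ran from 0 to 94, and in all 8 mice it was 25 when HLA→B6 replicate 2 was left out, 26 for HLA→B6 replicate 1, 78 for HLA→B6 replicate 3 and 32, 31, 30, 33 and 40 for the B6→B6 mice in order. Members with at least 2 Foxp3 UMIs, members with a Cd4 UMI and at least 20 cells per mouse could not be fitted. Between groups in Foxp3-positive cells the count, 4, was 2 without shared-barcode cells, 0 with DESeq2, 2 without the filter, 1 with all 8 mice, 1 with all 8 and the replicate block, and 0 to 3 without 1 of the 8. In Foxp3-zero Cd4-positive cells the count, 11, was 54 without the filter, 7 with linked libraries as a factor, 0 with as many cells as the Foxp3-positive class has, and 3 to 21 without 1 mouse, with 3 without HLA→B6 replicate 1 and 21 without B6→B6 replicate 3. For the difference of effects the count, 2, was 0 without shared-barcode cells, without doublets, with DESeq2, with RLE, without the filter and against all Foxp3-zero cells, and 1 with all 8 mice. Against CD8 cells the count, 235, was 154 with DESeq2 and 71 to 194 without 1 mouse.

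Whether the replicate numbers of the labels pair the mice cannot be settled from so few correlations. Same-numbered deviations in Foxp3-zero Cd4-positive cells correlated at -0.0706, 0.129 and -0.140, and only replicate 2 correlated best with its own number. The cell names also number the HLA→B6 mice differently, so the same-numbered mice compared here may not be the right ones. With the replicate block the difference in the share of T cells was -0.448 points (exact permutation of signs, p = 0.5), in the share of CD4 cells -2.09 (exact, p = 0.75), and the count in Foxp3-zero Cd4-positive cells was 7. No gene that was named by the rule and passed the threshold reversed. Of the alternatives for such genes against Foxp3-zero Cd4-positive cells 417 kept the side of the threshold and 78 lost it. Named genes that did not pass are not covered by these counts.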
